A study of Saccharomyces cerevisiae with 12 samples.

Results

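The untreated cultures of the laboratory yeast strain BY4741 were the control arm of a study of alachlor, a chloroacetanilide herbicide. The study ran its exposure to 110 mg/L alachlor, called the LOEC experiment after the lowest concentration with an observed effect, and its exposure to 200 mg/L, called the IC20 experiment, independently of each other, and each had 3 untreated cultures of its own. All arrays labelled as without alachlor were taken, which gave 6 of the 12 arrays of the series, and the 3 of the IC20 experiment were set against the 3 of the LOEC experiment. Both groups held the same strain, growing exponentially (OD at 640 nm of 0.25 ± 0.05) in minimal medium of pH 6.5 at 30 °C and 250 rpm for 2 h with no herbicide added. RNA was extracted with hot phenol, and 100 ng was amplified from the 3' end and hybridised to Affymetrix Yeast Genome 2.0 arrays. The labels call the cultures independent biological replicates. BY4741 is a haploid of mating type a in which LEU2, URA3 and MET17 (also called MET15) are deleted and an inner part of HIS3 is missing, so all 6 cultures shared these defects. The labels used here name neither the carbon source nor the supplements of the medium.

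A yeast cell in exponential growth devotes most of its transcription to making ribosomes and to the enzymes that break down sugar. In minimal medium it must also build the amino acids and purines that the medium does not supply. The transcription factor Gcn4 drives many of the genes for this work. Genes for stress protection, for storage carbohydrates and for alternative carbon sources are held low in such cells by nutrient signalling through protein kinase A and by glucose repression.

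Each deposited value is an intensity, on a linear scale, and the medians of the untreated arrays lay within 1561.3 to 1592.6. Across the 5449 genes with a named probe set, log2 values of arrays correlated at 0.9946 to 0.9973 within the LOEC experiment, 0.9951 to 0.9970 within the IC20 experiment and 0.9917 to 0.9957 between the experiments. A pair of arrays stood apart from their group. IC20 array 2 gave lower values for long genes, and LOEC array 3 was the array farthest from its group's middle value for 50.9% of the 5006 genes with a mean above the level of the deleted loci. The brightness of a probe set depends on its probes as well as on its transcript, so levels of different genes are described here and not ranked as amounts. The number of arrays limits the precision, and for 3 arrays against 3 the smallest p of an exact permutation test is 0.1, so none was run for single genes.

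The loci removed from the strain served as a measure of background. URA3, of pyrimidine synthesis, read 25.7 ± 13.3 (SD, n = 6), MET17, of sulfide incorporation, read 139 ± 17.6 and LEU2, of leucine synthesis, read 181 ± 23.0. Their highest single reading was 213, on LOEC array 3, and 443 genes (8.13% of all) had a mean over the 6 arrays at or below it. The level of the deleted loci always means this reading of 213. A gene said to be below the deleted loci can therefore be above the means of these loci. HIS3, whose coding sequence is only partly removed, read 7231 ± 381. The markers of the labelled mating type were present. The 7 genes of a cells had means of 1453 to 21658, with the a-factor precursors MFA1 at 16161 ± 241 and MFA2 at 21658 ± 507 and the alpha-factor receptor STE2 at 16279 ± 774. Of the 4 genes of alpha cells, MF(ALPHA)1 read 28.8 ± 6.77, STE3 read 116 ± 7.56 and MF(ALPHA)2 read 209 ± 26.9, all at or below the deleted loci, while SAG1, alpha-agglutinin, read 1277 ± 94.6. Genes of meiosis and sporulation were dim: 28 of 37 had means at or below the deleted loci, and the highest, the synaptonemal complex gene ZIP1, read 509.

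The brightest probe sets of the untreated cultures belonged to glycolysis, translation and the cell wall. TDH3, glyceraldehyde-3-phosphate dehydrogenase, had the highest mean, with 37302, 37524 and 36218 on the LOEC arrays and 36639, 37018 and 37299 on the IC20 arrays. The groups overlapped, and its SD over the 6 arrays was 489. After it came TEF2, translation elongation factor EF-1 alpha, at 32858 ± 451 (SD, n = 6), CCW12, a covalently linked cell wall mannoprotein, at 32666 ± 663, and CDC19, pyruvate kinase, at 31706 ± 529. The brightest 20 genes ran down to 28220 for RPL10 and held the glycolytic genes PGK1, GPM1, ENO2, TPI1 and FBA1, the fermentation genes ADH1 and PDC1 and 8 ribosomal protein genes, RPL2A, RPL4A, RPL18B, RPS4B, RPS13, RPS15, RPL30 and RPL10. They also held YDR524C-B, a small open reading frame, at 28939 ± 622. Their coefficients of variation over the 6 arrays were 0.598% to 2.71%, against medians of 3.02% over the brightest 10% of genes and 6.04% over all genes, and 17 genes were among the brightest 20 on every untreated array. The highest value of any probe set in the series was 38941, so these genes lay near the top of the values. Whether signal is compressed there was not tested. TEF2 has a copy of nearly the same sequence that is not named separately on the array, so its reading may hold both. TDH2, a paralogue of TDH3, was not named on the array either.

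A gene was called bright when its mean lay among the highest 10% of all genes, which put the limit at 8737 and left 545 genes. Counted on each array by itself, 506 genes were among the brightest 10% on all 6. Of the bright genes, 369 were in at least 1 of the 45 gene groups examined and 176 were in none. The plot of gene groups by level shows the groups ordered by their medians.

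**Figure D1:**
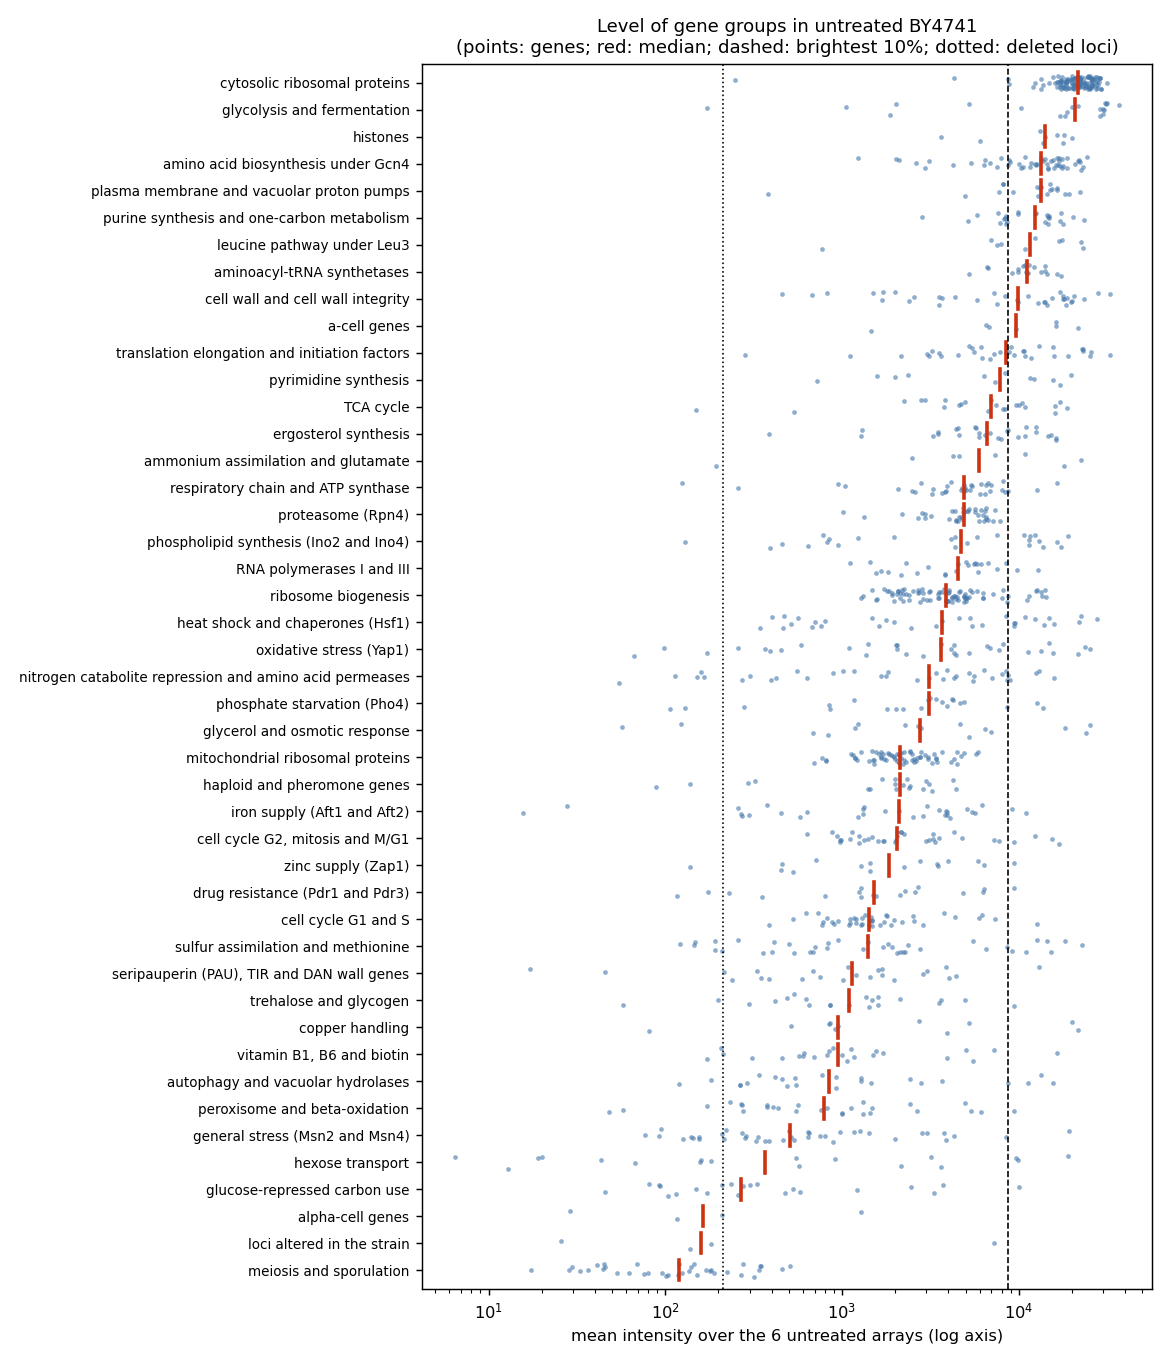
Each point is a gene, placed by its mean intensity over the 6 untreated arrays on a log axis, in rows of gene groups ordered by their medians (red bars). The dashed line marks the brightest 10% of genes at 8737 and the dotted line the highest reading of the deleted loci at 213; 124 of 127 ribosomal protein genes lie right of the dashed line, and 28 of 37 meiosis genes lie left of the dotted line.

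Genes of protein synthesis were bright nearly as a class. Of the 127 cytosolic ribosomal protein genes, 124 were bright, with a group median of 21581, and they made up 61 of the 100 brightest genes. The exceptions were RPL22B at 8659 ± 389 and RPL15B at 4310 ± 246, each the partner of a bright paralogue, and RPL41A at 249 ± 90.5, which encodes the shortest ribosomal protein. Among translation factors 17 of 35 were bright, including EFT2, elongation factor 2, at 25491 and YEF3, the fungal elongation factor 3, at 25161, while HEF3, the paralogue of YEF3, read 284. EFT1, the partner of EFT2, was not named on the array, so the reading of EFT2 may hold both. Whether the probe sets of paralogous ribosomal protein genes read them apart was not examined. Of the 19 cytosolic aminoacyl-tRNA synthetase genes, which charge tRNAs, 16 were bright, led by DED81, for asparagine, at 17434. The machinery that assembles ribosomes was at a middle level: 8 of 87 ribosome biogenesis genes were bright, among them the nucleolar NOP1 at 14233 and NOP58 at 14083, and the lowest, the helicase gene DBP8, read 1284. RNA polymerases I and III had 2 of 25 members bright, RPB8 at 12805 and RPA135 at 9814. Mitochondrial ribosomal proteins had 0 of 68 members bright, with a median of 2125.

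Carbon metabolism showed bright glycolysis beside dim pathways for other carbon sources. Of 20 genes of glycolysis and fermentation 15 were bright, and the dim ones included PDC6, a minor pyruvate decarboxylase, at 171 and PYK2, the minor pyruvate kinase, at 1057. Among 18 hexose transport genes 3 were bright, the low-affinity transporter HXT3 at 18983 ± 646 and HXT1 at 9925 ± 356 and the transporter HXT2 at 9577 ± 399, and 9 were at or below the deleted loci, among them HXT5, HXT8 and HXT13. Of 22 genes for galactose, sucrose, maltose, acetate and gluconeogenesis, 9 were at or below the deleted loci, including FBP1, fructose-1,6-bisphosphatase, at 173 and MLS1, malate synthase, at 80.6. ATO3, a putative ammonium exporter gene placed in that group, was its 1 bright member at 10012. The TCA cycle had 8 of 23 members bright, among them IDP1 at 18698, the aconitase gene ACO1 at 17177, IDH2 at 16048 and CIT2 at 15980, enzymes on the route to glutamate. Of the respiratory chain and ATP synthase 2 of 37 were bright, ATP1 at 16521 and ATP2 at 12736, which encode the catalytic head of the synthase.

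Biosynthetic genes were bright as well. Of 53 measured genes of amino acid synthesis under Gcn4, 39 were bright, with a median of 13409. ARG1, argininosuccinate synthase, read 24037, 24296 and 24495 on the LOEC arrays and 24309, 24292 and 24812 on the IC20 arrays, so the groups overlapped. ILV5, of branched-chain synthesis, read 23048 and GCN4 itself 21788, while ARG2, which opens ornithine synthesis, read 1237. Of 10 genes of the leucine pathway under Leu3, 6 were bright in this strain with no LEU2 gene, namely ILV5, GDH1, LEU4, BAT1, LEU1 and ILV2. GDH1, the NADPH glutamate dehydrogenase that takes up ammonium, read 22416 ± 571, and its paralogue GDH3 read 194. Purine synthesis and one-carbon metabolism had 15 of 25 members bright, led by SHM2, serine hydroxymethyltransferase, at 23492 and ADE17 at 20218, and pyrimidine synthesis had 5 of 12, led by URA1, dihydroorotate dehydrogenase, at 19723.

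Sulfur assimilation was split in this strain without MET17. Of 39 genes 7 were bright, among them SAH1, adenosylhomocysteinase, at 22720, the methionine synthase gene MET6 at 18182, the S-adenosylmethionine synthetase gene SAM1 at 15251 and CYS4, of cysteine synthesis, at 14345. The genes that take up and reduce sulfate were lower, with the ATP sulfurylase gene MET3 at 704, MET14 at 947 and MET16 at 833, and the sulfate permease SUL1 at 147, below the highest deleted-locus reading. The group had 6 members at or below that reading. For ammonium and amino acid uptake, 4 of 37 genes under nitrogen catabolite repression or encoding permeases were bright, led by ASP3-1, cell-wall asparaginase, at 15785 and the glutamine permease GNP1 at 13028. DAL80, a repressor of nitrogen genes, at 54.6 and the allantoin permease gene DAL4 at 152 were below the deleted loci.

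Genes of the main cell wall group and of proton transport were bright in large part. Of 37 cell wall genes 20 were bright, led by CCW12, CWP2 at 27927 and SCW4 at 23522. The seripauperin, TIR and DAN wall genes had 1 of 24 bright, PAU23 at 13087, and a median of 1139. Of 19 genes for proton pumps 14 were bright, with PMA1, the plasma membrane proton ATPase, at 19260.2 ± 927 and the vacuolar subunit VMA3 at 22124, while PMA2, its minor paralogue, read 380.4. Histones had 7 of 9 members bright, with means of 3620 to 19976. Lipid synthesis had 10 of 26 phospholipid genes bright, led by the fatty acid synthase FAS1 at 19046, and 9 of 28 ergosterol genes bright, led by ERG11, lanosterol demethylase, at 16307. Proteasome genes had 0 of 38 bright and means of 1013 to 7823.

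The general stress genes were low, while the heat shock, phosphate, iron and zinc groups had medians of 3677, 3103, 2106 and 1851, above the median of 1601 over all genes. Of 40 general stress genes under Msn2 and Msn4, 1 was bright, HOR7 at 19350.3 ± 334, 9 were at or below the deleted loci and the median was 508. Of 33 heat shock and chaperone genes 11 were bright, led by the constitutive chaperones SSB1 at 27837, SSB2 at 22374 and SSA2 at 21897, while the inducible HSP26 read 516 and HSP30 read 342. Phosphate starvation genes had 2 of 22 bright, VTC1 at 13660 and the high-affinity transporter PHO84 at 12667, while the secreted phosphatase PHO5 read 1175. In iron supply 2 of 31 were bright, FET3 at 11021 and ISU1 at 9209, and in zinc supply 1 of 16, ZRC1 at 9358. Copper handling, with a median of 945, had SOD1 at 21603 and the metallothionein CUP1-1 at 20028, which has several copies in many strains. Vitamin genes had a median of 943 and 1 of 24 bright, SNZ1, of vitamin B6 synthesis, at 16375 ± 363, and the thiamine gene THI4 read 694.

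The untreated cultures of the experiments were compared gene by gene with limma on log2 values, as IC20 minus LOEC, with Benjamini-Hochberg adjustment over 5449 genes. Of these, 11 genes (0.202%) passed at adjusted p under 0.05, 7 (0.128%) higher in the IC20 experiment and 4 (0.0734%) lower. All 11 had groups that did not overlap, which held for 21.2% of all genes. At unadjusted p under 0.05 there were 803 genes (14.7%), 436 higher and 367 lower. The difference lay within 0.1 on the log2 scale for 67.8% of genes, and the middle of all genes was at 0.00. The count moved when an array was left out. It was 7, 4 and 6 without LOEC arrays 1, 2 and 3. Without IC20 arrays 1, 2 and 3 it was 1, 19 and 9. A fit with fewer arrays also has less power, so a lower count alone does not show dependence on that array.

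The largest differences past the test, YBL100W-A and YBL005W-A, were both at probe sets of retrotransposon genes. YBL100W-A, which encodes the Gag coat protein of a Ty2 element, read 298, 384 and 331 in the LOEC cultures and 6753, 6053 and 3833 in the IC20 cultures. Every IC20 array was far above every LOEC array, by 4.003 ± 0.21 (SE) on the log2 scale or 16.4-fold in the means (limma adjusted p = 0.00225). YBL005W-A, Gag of a Ty1 element, read 269, 320 and 209 in the LOEC cultures and 954, 1146 and 817 in the IC20 cultures. Since LOEC array 3 lay below the deleted loci, this is at least 3.65-fold (log2 difference 1.88 ± 0.18, limma adjusted p = 0.0149). Another Ty1 Gag probe set, YAR010C, read 9843, 6401 and 2946 against 19489, 20110 and 18619 and did not pass (log2 difference 1.77, limma adjusted p = 0.140), with the LOEC arrays spread over 3.34-fold. The probe set of the longer Ty2 reading frame, YBL100W-B, read 10691 to 12308 in the LOEC cultures and 10602 to 11261 in the IC20 cultures, and the groups overlapped. The Ty1 polymerase probe set YAR009C pointed the other way, with 4322, 5452 and 5786 in the LOEC cultures and 2801, 3411 and 4164 in the IC20 cultures. Yeast carries many near-identical Ty copies and all of these probe sets are marked by the manufacturer as matching several sequences, so readings cannot be assigned to 1 copy, and how many copies the cells of each experiment carried was not measured. In RNA of a whole culture, more cells with a transcript and more RNA per cell cannot be told apart.

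**Figure D2:**
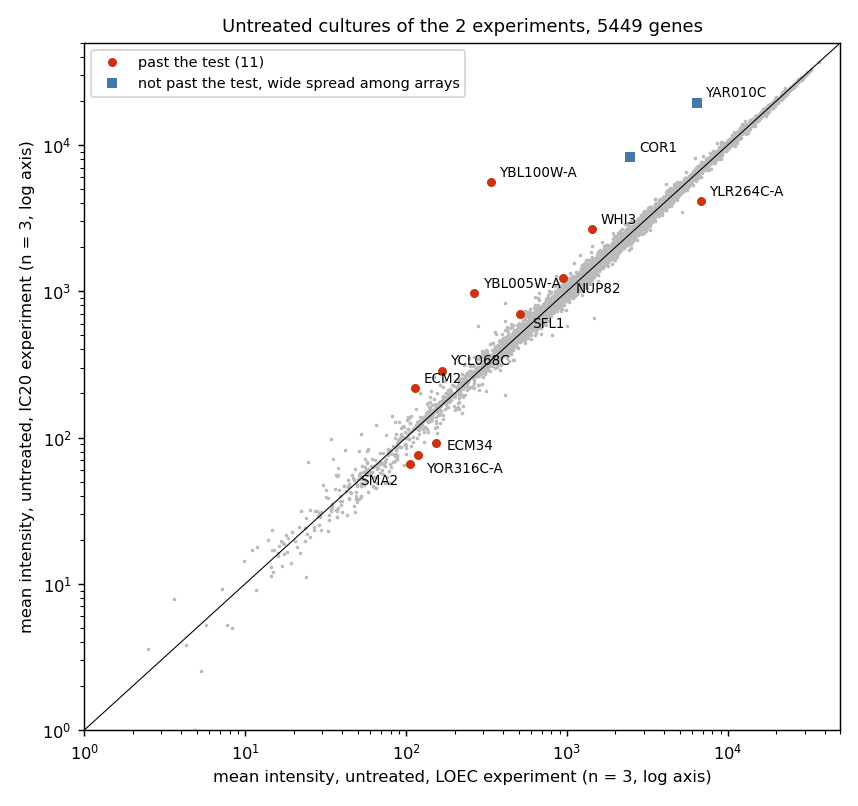
Each point is 1 of 5449 genes, placed by its mean intensity over the 3 untreated LOEC arrays (x) and the 3 untreated IC20 arrays (y), both on log axes, with the line of equality. The 11 genes past the test are red; YBL100W-A lies at 338 against 5546, and COR1 and YAR010C (blue squares) lie off the line without passing.

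Of the other genes that rose in the IC20 experiment, WHI3 was the brightest. WHI3 encodes an RNA-binding protein that restrains the G1 cyclin Cln3, and it read 1539, 1428 and 1304 in the LOEC cultures and 2830, 2563 and 2540 in the IC20 cultures. That is 1.86-fold in the means, with no overlap (log2 difference 0.89 ± 0.08 SE, limma adjusted p = 0.00974). SFL1, a repressor of flocculation genes, had means of 507 ± 26.6 and 699 ± 27.8 (SD, n = 3 each), a ratio of 1.38 (limma adjusted p = 0.0450). NUP82, a nuclear pore subunit, had means of 940.4 ± 18.9 and 1228 ± 29.3, a ratio of 1.31 (limma adjusted p = 0.0274). ECM2, a splicing factor gene, read 107 to 122 against 206 to 227, which leaves a bound of 1.02-fold because the higher readings were at the level of the deleted loci (limma adjusted p = 0.00428). YCL068C, of unknown function and with a probe set of the same shared kind, read 157 to 172 against 272 to 313, at least 1.34-fold (limma adjusted p = 0.0139).

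Among the 4 genes that fell, YLR264C-A was the 1 gene above the level of the deleted loci. This small open reading frame read 6979, 6325 and 7209 in the LOEC cultures and 4426, 3735 and 4209 in the IC20 cultures. The ratio of means was 1.66 with no overlap (log2 difference -0.73 ± 0.08 SE, limma adjusted p = 0.0274). The other 3 lay below the deleted loci in both groups and get no fold. SMA2, a spore membrane gene, had means of 106 and 66.2, ECM34 had 153 and 91.7 and YOR316C-A had 118 and 76.5, with limma adjusted p of 0.00779, 0.0259 and 0.00428. Just outside the threshold, YDR524W-C, another small open reading frame, read 1640, 1401 and 1356 against 778, 513 and 663 (log2 difference -1.19, limma adjusted p = 0.0517).

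The genes differed in how often their calls stayed when 1 array was left out. Such a fit has less power, so a lost call alone does not show that the difference rested on that array. YBL100W-A passed in all 6 fits that left out an array, with adjusted p of 0.000218 to 0.0254. ECM2 and YOR316C-A failed without IC20 array 1, each at adjusted p = 0.0501. WHI3 failed without LOEC array 2 or IC20 array 1 (adjusted p up to 0.0648) and YBL005W-A without LOEC array 1 or IC20 array 1 (up to 0.0887). SMA2 failed without LOEC array 2 or IC20 array 1 (up to 0.0558). YCL068C passed in 2 of the 6 fits, those without IC20 array 2 or 3, with adjusted p up to 0.0717 in the others. NUP82 passed only without IC20 array 2, ECM34 only without IC20 array 3 and YLR264C-A only without IC20 array 2, with adjusted p up to 0.186, 0.131 and 0.145. SFL1 passed in none, with adjusted p of 0.0682 to 0.193. Removing each array's trend with gene length ended the calls of NUP82 (adjusted p = 0.0684), SFL1 (0.0684) and YLR264C-A (0.0587), and quantile normalisation that of SFL1 (0.0607). With all 12 arrays in 1 fit ECM34 (0.0822), NUP82 (0.177) and YOR316C-A (0.229) did not pass, and with an intensity trend and robust moderation SMA2 and YOR316C-A did not (0.0514 each).

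**Figure D3:**
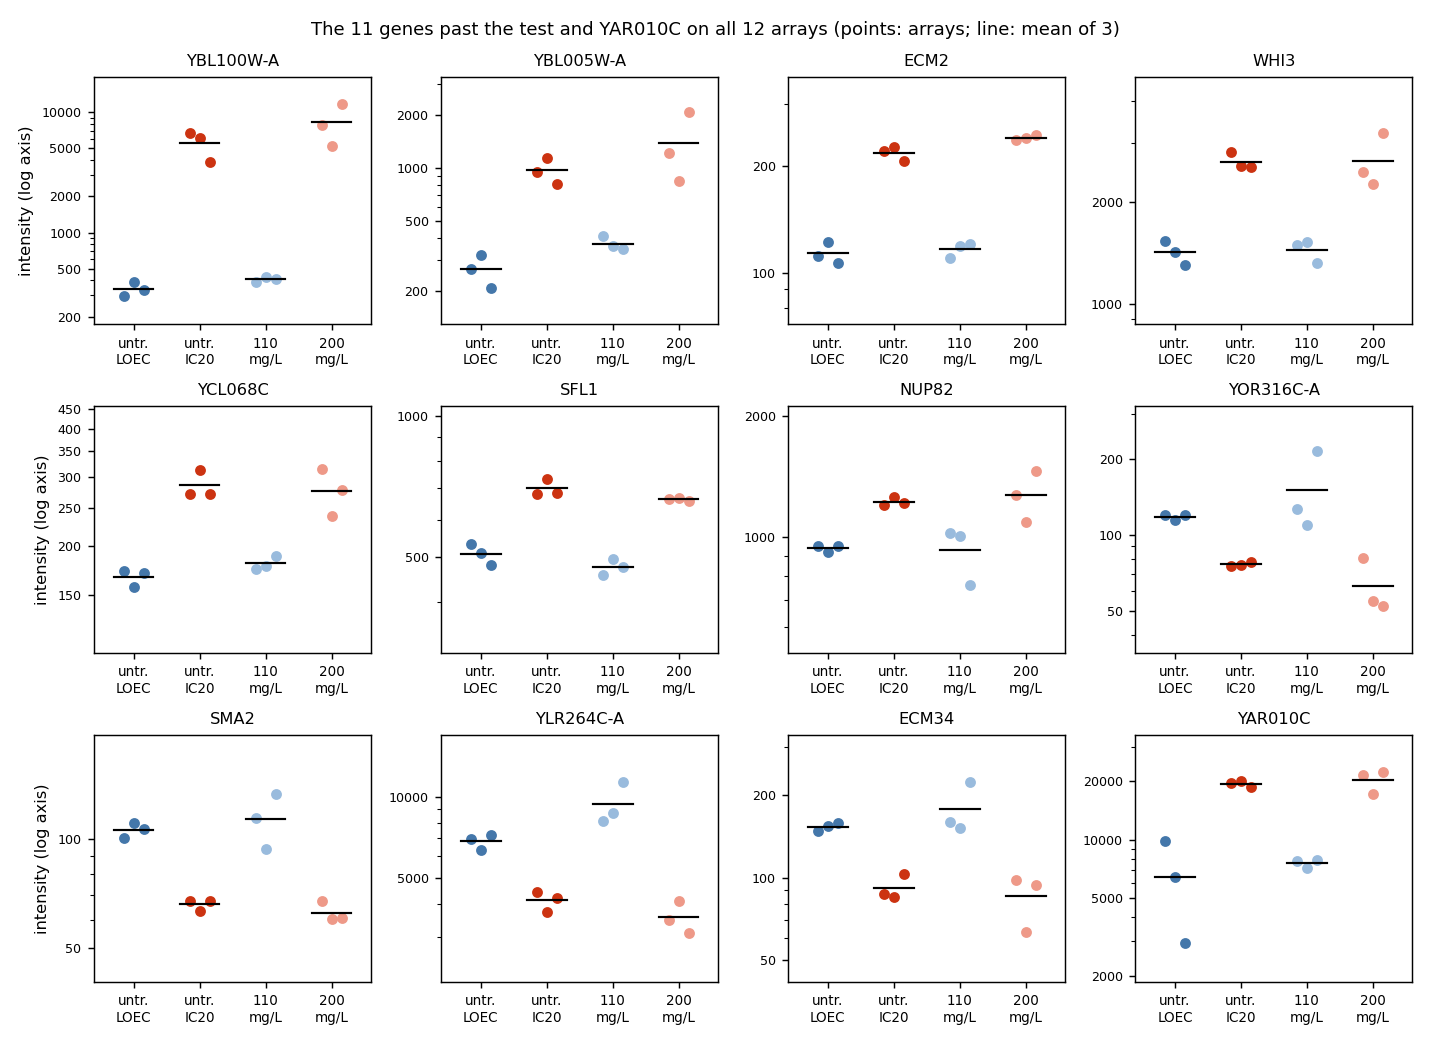
Each panel shows 1 gene, the 11 past the test and YAR010C, with a point for each of the 12 arrays, a line at the mean of 3 and intensity on a log axis, for the untreated LOEC and IC20 cultures and the cultures with 110 and 200 mg/L alachlor. In each panel the 200 mg/L arrays lie on the same side of the 110 mg/L arrays as the untreated IC20 arrays lie of the untreated LOEC arrays.

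The treated cultures, which share no array with this comparison, showed the same split by experiment. All 11 genes had 200 mg/L arrays on the same side of the 110 mg/L arrays with no overlap, as 35.1% of all genes had in either direction, and the sign of the 2 differences was the same for 70% of all genes. Of the 11, 10 also passed between the treated groups, where 8.02% of all genes passed, and NUP82 did not (limma adjusted p = 0.105). YBL100W-A had means of 409 at 110 mg/L and 8245 at 200 mg/L, and WHI3 had means of 1446 and 2652. COR1, described below, was at 2184 to 2610 on the treated arrays. Between the treated groups dose and experiment cannot be told apart, and in the untreated comparison the experiment and anything else that differed between the occasions cannot be told apart.

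In the groups by function no gene passed between the untreated experiments. Of the 1275 genes in at least 1 of the 45 groups, 0 passed limma's test, against 0.202% of all genes. At that share few would pass among 1275, so the 0 is not read as a trait of the groups. An unadjusted p under 0.05 was found for 126 (9.88%), against 14.7% of all genes. The highest unadjusted shares were those of copper handling with 3 of 11 (27.3%), meiosis with 9 of 37 (24.3%, 7 of them lower), phosphate starvation with 5 of 22 (22.7%) and hexose transport with 4 of 18 (22.2%). Means at or below the deleted loci were held by 28 of the 37 meiosis and 9 of the 18 hexose transport genes. Over all genes this share was 8.13%. Of the 127 ribosomal protein genes 2 were under 0.05 unadjusted, both lower in the IC20 experiment, and the group median difference was -0.02. Ribosome biogenesis had 14 of 87, 9 higher and 5 lower, with a median of 0.00, and genes of the G1 and S phases had 9 of 42, 5 higher and 4 lower. The cell wall group had 4 of 37, all higher, with a median of 0.04, and the seripauperin, TIR and DAN wall genes had 3 of 24, all lower, with a median of -0.07. Amino acid synthesis under Gcn4 had 3 of 53, glycolysis and fermentation 1 of 20, and the aminoacyl-tRNA synthetases, histones, proton pumps and purine genes 0 each. With all 12 arrays in 1 fit 4 genes of the groups passed, with limma's array weights 48, and without IC20 array 2 1 passed.

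Spread within an experiment was small for most genes and larger in the IC20 cultures. The median SD of log2 values over 3 arrays was 0.056 in the LOEC experiment and 0.082 in the IC20 experiment, and 66.0% of genes had the larger SD in the latter. Leaving out IC20 array 1, 2 or 3 brought the IC20 median to 0.071, 0.053 or 0.078. Leaving out LOEC array 1, 2 or 3 brought the LOEC median to 0.048, 0.059 or 0.034. Each of these is an SD over 2 arrays, which is not directly comparable with an SD over 3. Among the 5006 genes with means above the deleted loci, 32 (0.639%) varied over more than 1.5-fold among the LOEC cultures, 27 of them with array 3 as the one apart. Among the IC20 cultures 29 (0.579%) did, 22 of them with array 2 apart. Without LOEC array 3 the LOEC count was 4, and without IC20 array 2 the IC20 count was 5. A range over 2 arrays cannot exceed that over 3, and each array left out was the array most often apart. Lower counts were therefore fixed in advance. With readings below the deleted loci raised to 213, 28 LOEC genes and 26 IC20 genes varied over more than 1.5-fold, and over more than 2-fold varied YAR010C, RDS1 and MRF1 in the LOEC and COR1 in the IC20 experiment.

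The genes of the widest range were few and of mixed function. COR1, a core subunit of respiratory complex III, read 2308, 2410 and 2660 in the LOEC cultures and 2494, 2276 and 19959 in the IC20 cultures. The reading on IC20 array 3 was 8.77-fold the lowest of its group, and the other 11 arrays of the series lay within 2184 to 2660. Other subunits of the complex did not share it: QCR2 read 2655 to 2970 and QCR7 read 8189 to 8614 on the same 3 arrays. In the LOEC cultures YAR010C led, followed by RDS1, a zinc cluster protein gene, at 864, 709 and 326, and SDS3, of the Rpd3 histone deacetylase complex, at 389, 301 and 151. For these 3 genes array 3 was the lowest, for SDS3 below the deleted loci. On LOEC arrays 1 and 2 alone their ranges, necessarily narrower, were 1.54-fold, 1.22-fold and 1.29-fold. MRF1, a mitochondrial translation release factor, read 1734, 1091 and 808 in the LOEC cultures and 1707, 1303 and 1032 in the IC20 cultures, and MRC1, a replication checkpoint mediator, read 1823, 1541 and 944 against 1819, 2573 and 1678. RPL41A, at 176 to 387 in the LOEC and 137 to 308 in the IC20 cultures, was near the deleted loci. TPO3, a polyamine transporter, ran the other way in the LOEC cultures, at 551, 851 and 1026. In the IC20 cultures OAR1, ECM18, PUF3, ALG9 and MSC1 ranged over 1.61-fold to 1.87-fold, and array 2 was the lowest in each, as in ALG9, a mannosyltransferase gene, at 5640, 3629 and 5906. Without array 2 these 5 ranged over 1.05-fold to 1.16-fold, a narrowing that follows from leaving out the lowest array. YKL070W at 1.82-fold, YDL109C at 1.81-fold and MDJ2, with 1 reading below the deleted loci and a range of at least 1.21-fold, completed the widest 10 of the LOEC cultures.

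Part of the IC20 spread followed gene length, taken as the annotated start to end of the gene. The deviations of an array from its group's mean had a Spearman correlation with gene length of 0.40 on IC20 array 1, -0.46 on array 2 and 0.18 on array 3, over 5449 genes that are not independent. On LOEC arrays 1, 2 and 3 it was 0.01, -0.06 and 0.02. For genes of 1473 to 2106 base pairs, the median deviation was -0.11 on IC20 array 2 and 0.05 on array 1 (log2). For the longest genes, of 2109 to 14733 base pairs, it was -0.06 and 0.05, so array 2 did not fall steadily with length. On array 3 it went from 0.06 to 0.01 between these classes. The difference between the experiments hardly moved with length (Spearman -0.05). With each array's trend removed, the median IC20 SD was 0.070, still above that of the LOEC cultures. The cause of the trend was not tested.

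**Figure D4:**
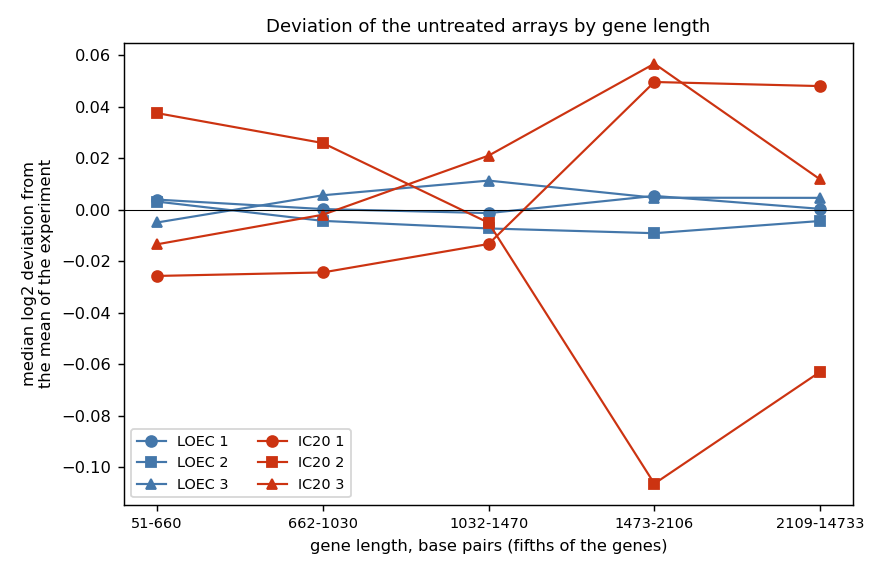
Median log2 deviation of each untreated array from the mean of its experiment (y) in 5 classes of genes by gene length in base pairs (x), with LOEC arrays in blue and IC20 arrays in red. The LOEC arrays stay near 0. IC20 array 2 falls from 0.04 for genes of 51 to 660 base pairs to -0.11 for those of 1473 to 2106. It lies at -0.06 for those of 2109 to 14733.

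Gene groups also moved together between cultures of the same experiment. This was seen in the data first and is given as a description, with no test. The third array of each experiment had the highest readings of storage carbohydrate and stress genes. Trehalose and glycogen genes had a median deviation from the 6-array mean of 0.11 on LOEC array 3 and 0.14 on IC20 array 3, with -0.04 and -0.06 on LOEC arrays 1 and 2 and -0.01 and -0.14 on IC20 arrays 1 and 2. Of their 21 members, 18 were highest on LOEC array 3 within that experiment (85.7%, against 42.2% of all genes) and 16 on IC20 array 3 (76.2%, against 35.3%). TSL1, a regulatory subunit of trehalose synthase, read 1924, 2014 and 2683 in the LOEC cultures and 2000, 1678 and 2456 in the IC20 cultures. GSY1, glycogen synthase, read 603, 578 and 776 against 581, 499.6 and 732. In both genes array 3 was the highest of each experiment, and the groups overlapped between experiments. The pattern was not confined to storage and stress genes. TCA cycle genes were highest on LOEC array 3 for 14 of 23 (60.9%) and on IC20 array 3 for 14 (60.9%). Glycerol and osmotic genes were so for 11 and 10 of 16, and oxidative stress genes under Yap1 for 19 and 18 of 33.

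The general stress genes followed, with median deviations of 0.10 and 0.08 on the arrays numbered 3. Of 40 members 29 (72.5%) were highest on LOEC array 3 and 26 (65.0%) on IC20 array 3. The group is dim, with 9 members at or below the deleted loci. LEU2, URA3, MET17 and HIS3, altered in the strain, were also highest on LOEC array 3 (4 of 4, median deviation 0.20). On IC20 array 3 their median deviation was 0.01, with 0 of 4 highest. How much of the rise in dim genes was background was not tested. CTT1, cytosolic catalase, read 282, 327 and 368 in the LOEC cultures and 318, 288 and 371 in the IC20 cultures, and SOL4 read 236, 249 and 360.3 against 241, 244 and 299. Not all stress genes did so. DDR2, of the same group, read 4427, 3881 and 3080 in the LOEC and 4682, 3623 and 3571 in the IC20 cultures, lowest on array 3 of both, and the heat shock gene HSP12 read 1267, 1233 and 1241 against 1268, 1359 and 1214.

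Ribosome biogenesis genes lay opposite. Their median deviation was -0.09 on LOEC array 3 and -0.04 on IC20 array 3, with 77 of 87 lowest on LOEC array 3 (88.5%, against 38% of all genes) and 48 on IC20 array 3 (55.2%, against 25.1%). EBP2, a nucleolar assembly factor, read 4433, 4034 and 3241 in the LOEC cultures and 4059, 4286 and 3688 in the IC20 cultures. RNA polymerases I and III had 21 of 25 members (84%) lowest on LOEC array 3 and 11 (44%) on IC20 array 3. Gcn4 targets of amino acid synthesis had 36 of 53 highest on LOEC array 3 and 40 on IC20 array 3, by small amounts, with median deviations of 0.02 and 0.05. With the trend with gene length removed these were 30 and 29 genes and deviations of 0.02 and 0.02. The LOEC pattern is that of array 3 itself. Without IC20 array 2, array 3 was above array 1 for 19 of 21 trehalose and glycogen genes (90.5%, against 52.4% of all genes). It was above for 32 of 40 general stress genes (80.0%) and 44 of 53 Gcn4 targets (83.0%). It was below for 74 of 87 ribosome biogenesis genes (85.1%, against 47.6%) and, less often, for 16 of 25 genes of RNA polymerases I and III (64.0%). With the trend with gene length removed, the medians on the arrays numbered 3 were 0.10 and 0.10 for trehalose and glycogen, 0.10 and 0.08 for general stress and -0.09 and -0.06 for ribosome biogenesis, and their signs were also the same under median centring and quantile normalization. The labels call the experiments independent and give no meaning to the shared number 3, and the source of the pattern was not tested.

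**Figure D5:**
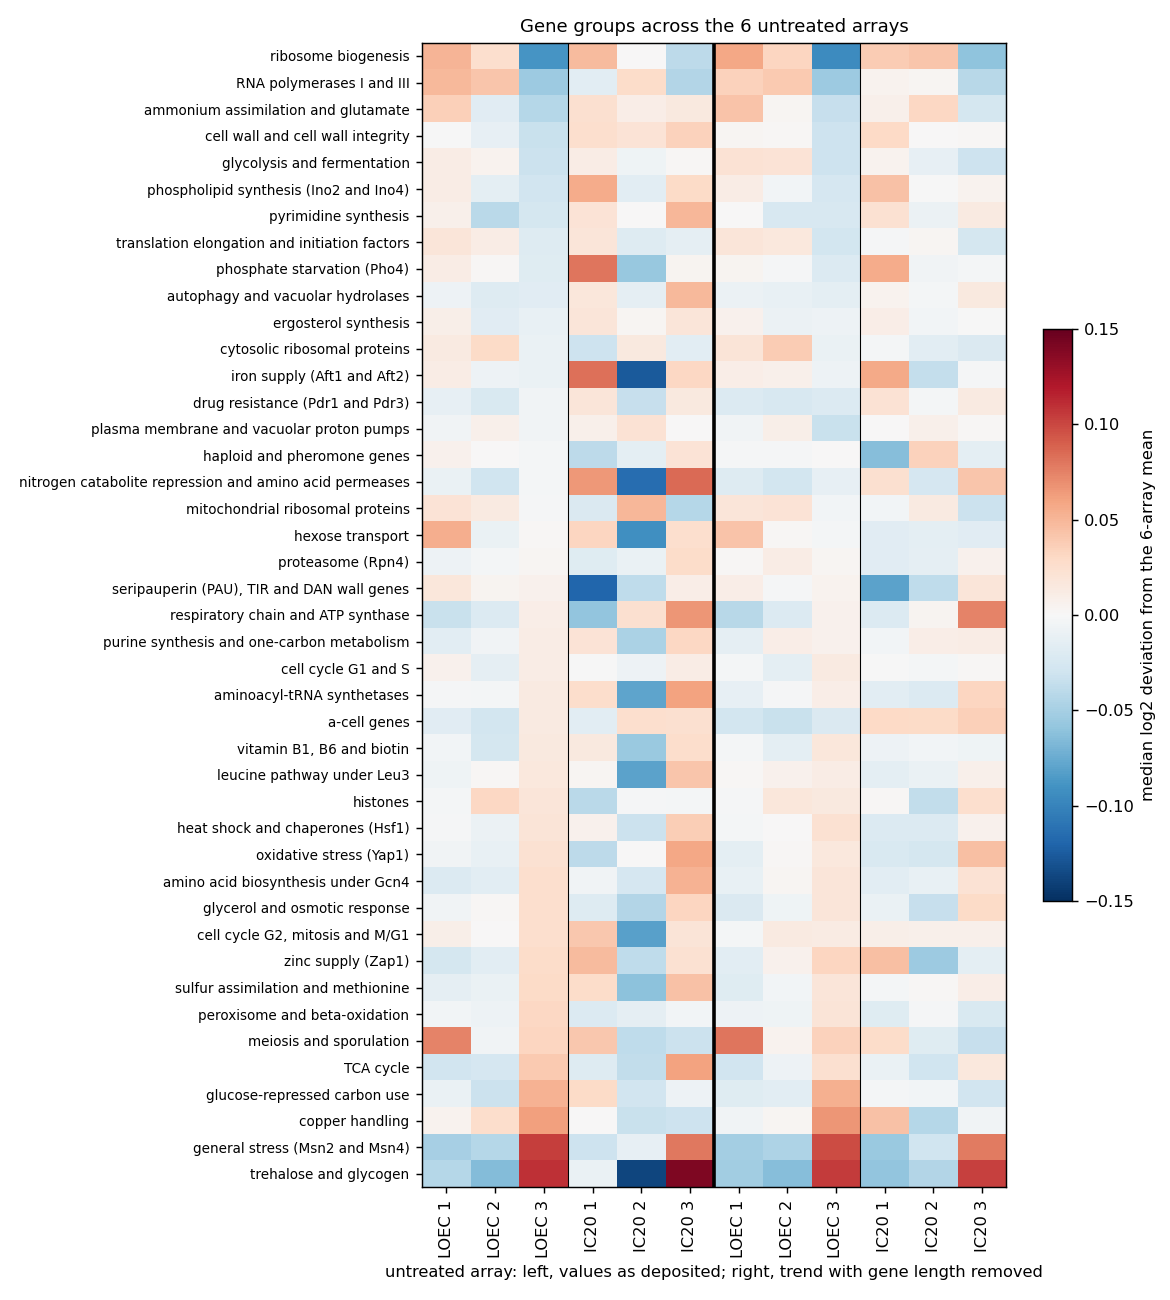
Median log2 deviation of each gene group (rows) on each untreated array (columns) from the mean of the 6 arrays, as deposited on the left and with the trend with gene length removed on the right; red is above and blue below the mean. The columns LOEC 3 and IC20 3 are red for trehalose and glycogen and for general stress and blue for ribosome biogenesis, both left and right.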

How the data were processed

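The authors deposited 1 intensity per probe set and array on a linear scale, for 5716 probe sets on 12 arrays. Per the submitters' processing notes, Affymetrix Expression Console was used; its version and role, and how arrays were summarised and normalised, are not given in the sources used here. A probe set table tied 5498 probe sets to 1 gene and left 218 unnamed. For 47 genes with several probe sets the brightest was used, giving 5449 genes, all matched to the RefSeq table of assembly R64, from which gene length (introns included) was taken. Probe sets marked as shared or cross-hybridising stand for 100 and 17 genes.

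Log2 values of the 6 untreated arrays, with no pseudocount, were fitted with 2 group means in limma 3.58.1 (R 4.3.3) and moderated by eBayes (4 residual and 2.78 prior degrees of freedom), two-sided, with Benjamini-Hochberg adjustment over all genes at 0.05. The procedure was tested on simulated data. Folds are ratios of group means, bounded at 213 where the dimmer group had an array below that reading of LEU2, URA3 and MET17. The treated arrays were fitted alike.

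The genes named are the brightest 20, all past the test, the 10 of the widest range in each experiment, the 2 brightest and the dimmest of each group, and all members of the mating type and strain groups; other names were chosen after their values were seen. The members and gene lists were chosen with earlier results of these data known. Names taken up wrongly by the lists' name patterns (RPP1, of RNase P, and MRP8) were removed after the lists were seen. Alternatives were other normalisations, filters, moderation, thresholds, all 12 arrays, array weights, a pseudocount of 16, a replicate block and leaving out each array. Added after seeing the data was the removal of the trend with gene length together with leaving out IC20 array 2, and ranges with low readings raised to 213 or without LOEC array 3 or IC20 array 2.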

Additional observations from a re-analysis of the deposited data

Results flagged for a closer look

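The 218 probe sets with no gene name took no part in the comparisons of genes. Of them 190 read above the highest reading of the deleted loci on all 6 untreated arrays. Their median mean was 1111 and the highest was 25613. In a limma fit over all probe sets 0 of them passed between the untreated experiments, and 41 had an unadjusted p under 0.05. Which sequences they read was not analysed here.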

How the results depend on the processing

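The count of 11 genes past the test, 7 higher and 4 lower, moved by over 1.5 times as follows. It was 22 (17 higher) with an intensity trend and robust moderation, 43 (32 higher, 11 lower) with all 12 arrays in the fit, 23 (17 higher) with 16 added before the log, and 324 (198 higher, 126 lower) with array weights, which limma set between 0.282 for IC20 array 2 and 7.03 for LOEC array 2. It was 5 (3 higher, 2 lower) at adjusted p under 0.01 and 2 (2 higher, 0 lower) with a change of at least 2-fold. The higher genes were 11 under median centring, and the lower ones 2 without the dimmest 20% of genes. Leaving out 1 array gave 1 to 19 genes, 1 to 13 higher and 0 to 6 lower. Quantile normalisation gave 11, all probe sets 11, removal of the trend with gene length 10, and that removal without IC20 array 2 gave 12, with 6 of them among the 11. With the replicate number as a block 8 genes passed, 6 higher and 2 lower, and 6 were among the 11, without YCL068C, SFL1, NUP82, SMA2 and ECM34. Deviations of same-numbered arrays of the experiments correlated at 0.08, 0.10 and 0.39, and those of differently numbered arrays at -0.29 to 0.18. The numbers were not taken as pairs because the labels give them no such meaning, and the correlations do not settle it. The 11 kept their directions under all these settings in which they were tested, and 6 of them were not tested without the dimmest 20%. Differences that did not pass turned sign for RPL41A (-0.17) at 0.19 with array weights and 0.14 to 0.17 without LOEC array 3 or IC20 array 1 (-0.43 without LOEC array 2), and for COR1 (0.98) at -0.043 without IC20 array 3. The causes were not tested beyond what each construction shows. Median SDs over 2 of 3 arrays ran from 0.034 to 0.059 (LOEC) and 0.053 to 0.078 (IC20). The brightest 5% in place of 10% changed the count of bright members in 30 of 45 groups. Readings near the deleted loci limit dim genes, and 3 arrays a group limit all tests.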
